A study of Lithospermum officinale with 3 samples.

Results

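Leaf and stem of the medicinal herb *Lithospermum officinale*, of the borage family, shared a set of 156 unigenes that stood far above root and at a similar level in leaf and stem. A unigene is a sequence assembled from the reads without a genome, and 1 gene can be assembled as several. The 156, out of 77047, were chosen by their measured expected counts, which are the read numbers that RSEM assigned to each unigene. The 100 unigenes with the largest counts summed over the libraries were set aside, and every other count was divided by what remained of its library. Members had at least 100 counts in leaf, a leaf value and a stem value each at least 16 times the root value, and a leaf to stem ratio above 0.5 and below 2. A count of 0 was taken as 0.5. Counts of all 3 libraries chose the members, so their levels and ratios below are a description, and no test was made on them.

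The plants were 2 years old, grew outdoors without an experimental treatment, and gave 1 poly(A)-selected, strand-specific library each for leaf, stem and root. No value therefore carries a replicate error. The labels name neither a cultivar nor a genotype, and whether the organs came from the same plant or from pooled plants is not given in the sources used here. The files pair no gene names with the unigene IDs, so functions, sequences, positions and the marker genes of each organ were not analysed here. Expected counts summed to 3490670 in leaf, 4469828 in stem and 10045956 in root. Without the 100 most counted unigenes these fell to 1432056, 2525988 and 4351427, so that a count of 0 allowed up to 2.09 CPM of this remainder in leaf, 1.19 CPM in stem and 0.689 CPM in root. These limits and all intervals printed below cover counting error only. Reads copied from 1 molecule could not be told apart.

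As background, leaf and green stem are both photosynthetic, carry a cuticle on their epidermis and share a vascular system. Root is fed with sugar from the shoot and takes up water and minerals. In the related *Lithospermum erythrorhizon*, root is known as the site of the red naphthoquinone shikonin. In tissue samples of this kind, fewer cells that express a gene and less RNA per cell cannot be told apart.

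Of the 2682 unigenes outside the 100 most counted that had 100 or more leaf counts, 16.6% stood at least 16 times higher in leaf than in root. In stem against root it was 12.5%, and 12.0% met that level in both organs. The leaf to stem band held 81.1% of the 2682. All parts of the rule together left the 156 members, 5.82% of the 2682. Over the 2682 the median ratio was 1.48 for leaf to root, 1.33 for stem to root and 1.06 for leaf to stem. The ratios to root spread widely. The quartiles were 0.723 and 6.75 for leaf to root, 0.822 and 4.17 for stem to root, and 0.821 and 1.59 for leaf to stem. The members had medians of 56.0, 43.2 and 1.30 in the same order. On deposited TPM their medians to root were 34.2 for leaf and 37.8 for stem, and on all counts 53.0 and 56.4, so that stem was then the higher. These ratios, and all others below unless said otherwise, are on counts divided by the library sum outside the 100 most counted unigenes.

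**Figure D1:**
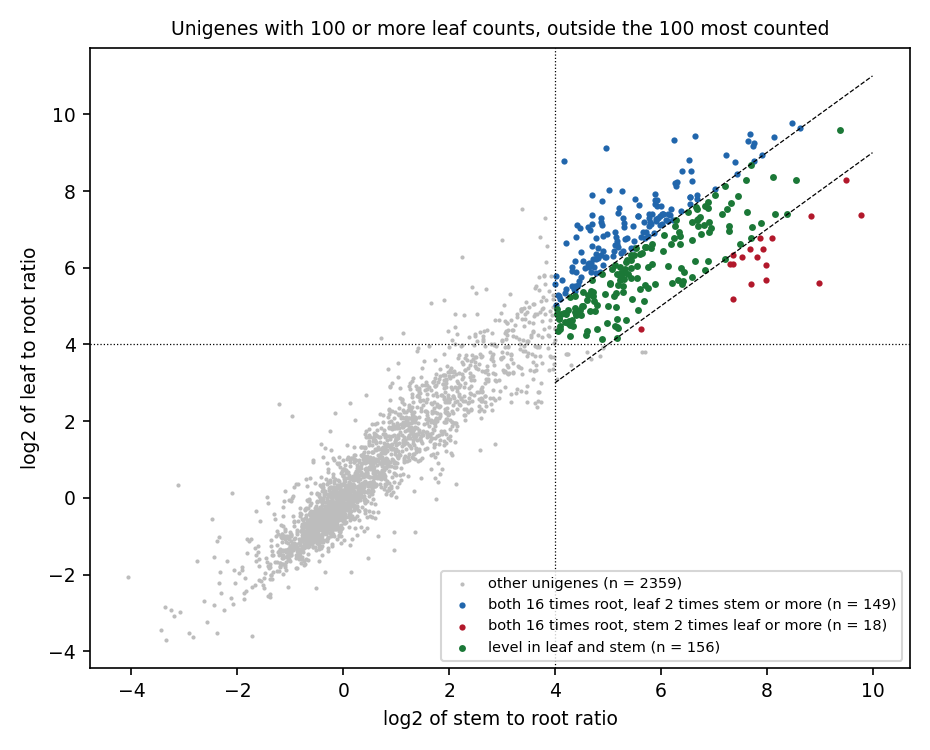
Log2 of the leaf to root ratio against log2 of the stem to root ratio for 2682 unigenes, 1 point each. Dotted lines mark 16 times root and dashed lines a leaf to stem ratio of 2 and of 0.5. The 156 members lie between the dashed lines, with 149 unigenes above them and 18 below. Zero counts are drawn as 0.5.

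Per length, the members covered a wide range of levels in the shoot. TPM, a relative level that RSEM corrects for unigene length, allows levels to be compared between unigenes. The lowest, median and highest level of the members was 7.19, 40.7 and 518 TPM in leaf. For stem these were 8.18, 53.3 and 664 TPM, and for root 0, 1.25 and 14.7 TPM. The highest root level thus lay within the lower part of the leaf and stem ranges. At 100 TPM or more stood 34 members in leaf, 41 in stem and 31 in both. At the low end, 31 were under 20 TPM in leaf.

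By rank among all 77047 unigenes, where rank 1 is the highest TPM, the median member stood at 1228 in leaf, at 1387.5 in stem and at 56828 in root. The best placed member ranked 72 in leaf and 70 in stem, and none ranked above 7416 in root. A rank needs no common scale between libraries. Of the 10 members with the highest leaf TPM, 7 were also among the 10 highest in stem, an overlap that the leaf to stem band of the rule favours. No single unigene dominated the set. The 10 most counted members held 27.5% of what the members had in leaf, and the 10 most counted in stem held 26.8% there.

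**Figure D2:**
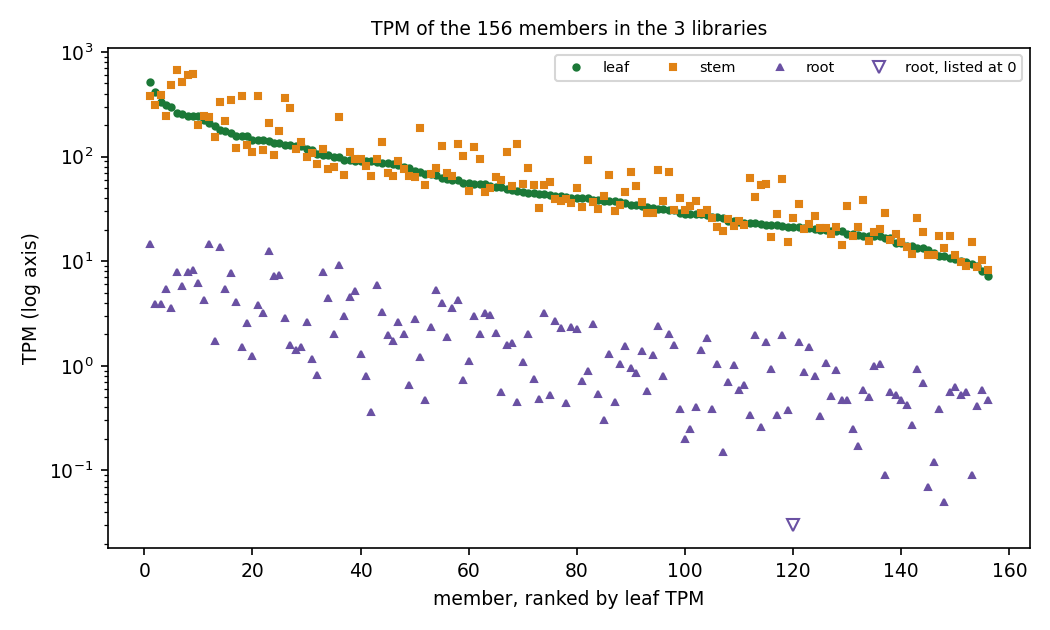
TPM on a log axis for each of the 156 members in leaf (circles), stem (squares) and root (triangles), ranked by leaf TPM. Leaf and stem points follow each other from over 100 TPM down to under 10 TPM, and the root points lie below both in every member. The open triangle is the 1 member listed at 0 in root.

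Summed over the members, 56110 counts fell in leaf, 86839 in stem and 3174 in root. That was 1.61% of all leaf counts (95% exact binomial interval 1.59% to 1.62%), 1.94% of all stem counts (1.93% to 1.96%) and 0.0316% of all root counts (0.0305% to 0.0327%). Of the counts outside the 100 most counted unigenes, it was 3.92% in leaf (3.89% to 3.95%), 3.44% in stem (3.42% to 3.46%) and 0.0729% in root (0.0704% to 0.0755%). Stem held the larger share by the first measure and leaf by the second. The 100 most counted unigenes, which separate these measures, took 59.0% of the leaf library, 43.5% of the stem library and 56.7% of the root library.

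The 2 members of highest leaf level were Unigene58423 and Unigene41680. Unigene58423 (1120 nt) reached 518 TPM in leaf and 379 TPM in stem against 14.7 TPM in root, from 1867, 1697 and 99 counts. It was thus high in both shoot organs. Its root TPM was the highest of all members, but its root count was not. Its ratio to root was 57.3 in leaf (95% counting interval 46.8 to 70.9) and 29.5 in stem (24.1 to 36.5). Unigene41680 (1625 nt) reached 418 TPM in leaf and 308 TPM in stem against 3.88 TPM in root, from 2312, 2115 and 40 counts. Its ratio to root was 176 in leaf (129 to 246) and 91.1 in stem (66.7 to 128). It was the most counted member in leaf, and the lower bound of its leaf to root interval was the largest among the members.

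Unigene16182 (1494 nt) had the next largest lower bound in leaf. Its 977 counts in leaf and 957 in stem stood against 16 in root, or 194, 153 and 1.71 TPM. Its leaf to root ratio was 186 (114 to 326) and its stem to root ratio 103 (63.1 to 181). The largest lower bounds in stem belonged to members that were higher in stem than in leaf. Unigene58020 (2684 nt) had 445 leaf, 1560 stem and 8 root counts, and a stem to root ratio of 336 (170.1 to 779). Unigene29620 (1282 nt) had 663, 1977 and 12 counts in the same order, and a stem to root ratio of 284 (162 to 550.2).

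Root counts were low, but all members except 1 had at least 1 count there. The share with no root count was 0.641% of the members and 0.298% of the 2682 unigenes, so a root count is no trait of the members. The root count was 1 to 9 in 62 members, 10 to 49 in 80 and 50 or more in 13, with a median of 13.5 and a highest value of 163. At 1 TPM or more in root stood 88 members, 19 of them at 5 TPM or more, and 34 were under 0.5 TPM. By these counts the members were mostly low in root. With libraries thinned to 1432056 counts outside the 100 most counted, 10 members had no root count. Whether the few root reads reflect expression in root was not tested. Unigene653 (1750 nt), named after its values were seen, was the 1 member with no root count in the full library. It had 127 counts in leaf and 193 in stem. The lower bound of its 95% counting interval was 103.1 for leaf to root and 89.3 for stem to root, with no upper bound.

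The few root counts set the precision of the ratios to root. Both ratios reached 32 in 100 members and 100 in 33 members. The whole interval lay beyond 16 in 140 members for leaf to root, in 117 for stem to root and in 109 for both. Over the 2682 unigenes these shares were 13.5%, 8.50% and 7.90%, and nothing is read from the difference, since the same ratios chose the members. Among the 93 members with 10 or more root counts, the median ratio was 36.3 for leaf to root and 34.8 for stem to root. Both medians were lower than over all 156, as these members were picked by their root counts. Their median leaf to stem ratio was 1.26, against 1.30 over all 156. At the leaf minimum of 100 counts, the rule allowed up to 18.99 root counts.

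**Figure D3:**
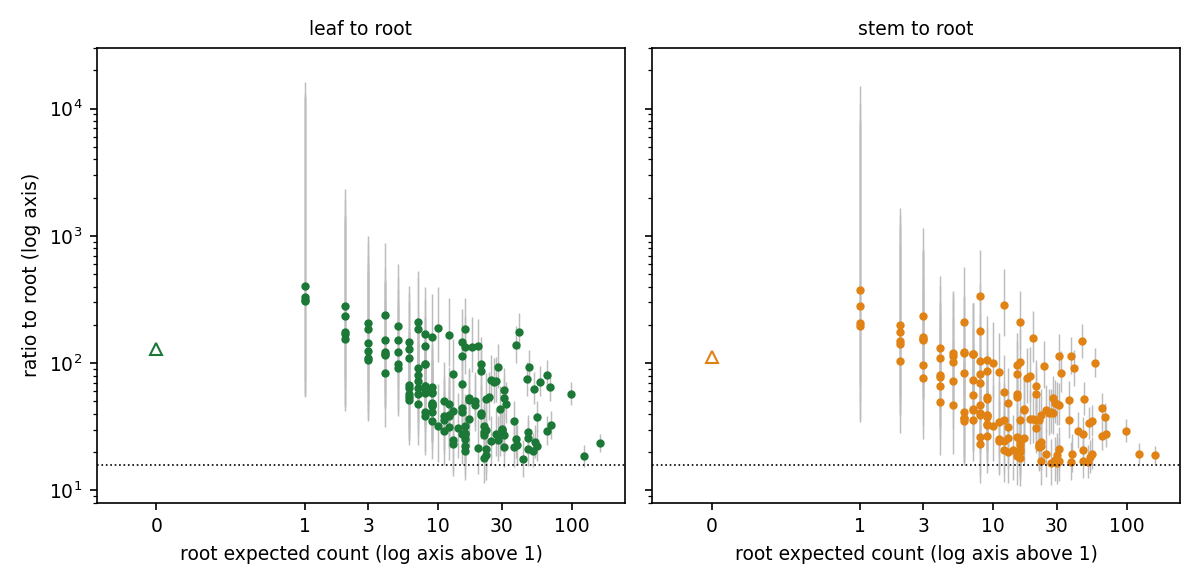
Ratio to root (log axis) against root expected count for leaf (left) and stem (right), 1 point per member with its 95% counting interval as a grey line. The dotted line is a ratio of 16. Intervals are widest at 1 to 9 root counts, and the open triangle is the 1 member with no root count, drawn with root set at 3 counts (128.6 in leaf, 110.8 in stem).

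The members with the highest levels also had the larger ratios to root. The 34 members at 100 TPM or more in leaf had a median ratio of 72.4 for leaf to root and 75.0 for stem to root. In the 91 members from 20 to 100 TPM these were 52.1 and 43.2, and in the 31 members under 20 TPM they were 48.2 and 35.9. Leaf TPM sets the tier, and the leaf count behind it is also the numerator of the leaf to root ratio. The leaf to stem band ties the stem level to the leaf level. Both are therefore orders within the list only. The leaf to stem ratio hardly moved, with medians of 1.28, 1.29 and 1.31 from the highest tier to the lowest.

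Within the band, the members leaned to leaf. On counts outside the 100 most counted unigenes, leaf was the higher library in 114 members and stem in 42. The ratio lay from above 1 to 1.5 in 66 members and from above 1.5 to 2 in 48. It lay from above 0.5 to 0.667 in 21 members and from above 0.667 to 1 in another 21. The counting interval of the leaf to stem ratio held 1 in 24 members, lay above 1 in 97 and below 1 in 35. Over the 2682 unigenes it held 1 in 33.2%, lay above 1 in 40.4% and below 1 in 26.4%. Level in leaf and stem therefore means within 2-fold. In the 97 and the 35 members just given, the 2 libraries differed on this scale by more than counting error. The whole interval stayed inside the band in 124 members. With all counts as the scale, the interval held 1 in 70 members.

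The lean to leaf depended on the scale. With all counts as the scale, which moved every log2 leaf to stem ratio by -0.46, the median ratio of the members was 0.943 and 65 members were higher in leaf. On deposited TPM, 61 members were higher in leaf and the median ratio was 0.913. With edgeR's trimmed mean of M-values (TMM) and with DESeq2 size factors, 114 were again higher in leaf. These counts of members and the next were also added after seeing the data. By TPM rank, 113 members stood higher in leaf, or 72.4%, against 56.2% of the 2682 unigenes.

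**Figure D4:**
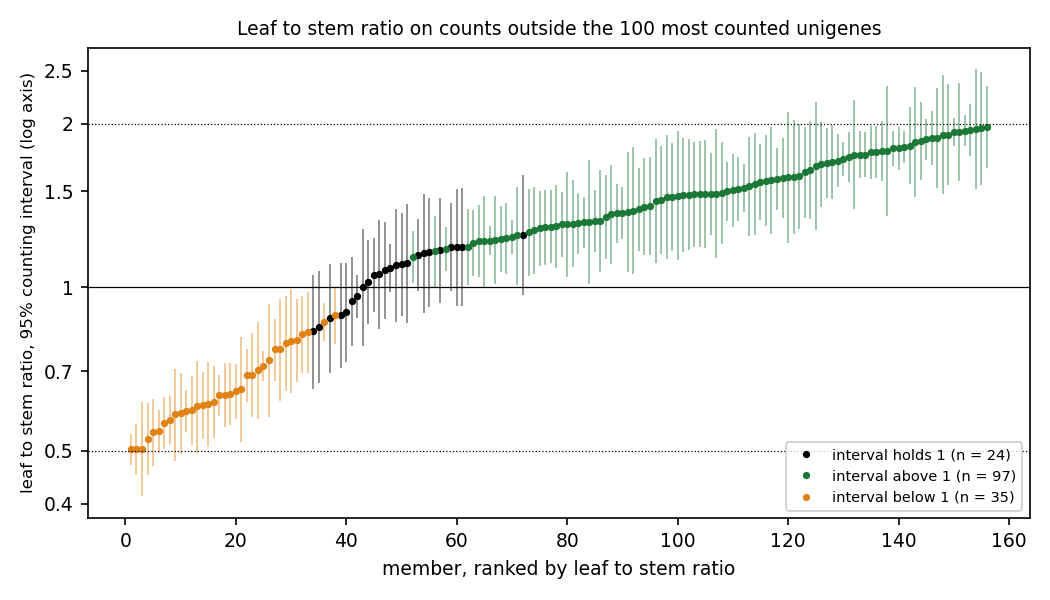
Leaf to stem ratio (log axis) of the 156 members, ranked, with 95% counting intervals. Dotted lines mark the band of 0.5 to 2. The interval held 1 in 24 members, lay above 1 in 97 and below 1 in 35.

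The extremes of the band show how wide it is. Unigene41680 and Unigene58423 had the leaf to stem intervals farthest above 1, with ratios of 1.93 (1.82 to 2.05) and 1.94 (1.82 to 2.07). At the other end stood Unigene41425 (2459 nt), with 1127 leaf, 3951 stem and 46 root counts, or 129, 366 and 2.84 TPM. It was the most counted member in stem, and its stem to leaf ratio was 1.99 (1.86 to 2.13). Unigene58020 followed with a stem to leaf ratio of 1.99 (1.79 to 2.21), at 46.5 TPM in leaf and 131 TPM in stem against 0.45 TPM in root.

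At each limit of the rule, members and unigenes left out lay close together. The member with the fewest leaf counts had 100, and the nearest unigene outside had 99. The lowest leaf to root ratio of a member was 17.6, from 249 leaf and 43 root counts, and the nearest outside was 15.3. For stem to root these were 16.4 and 15.996, the latter from 390 stem and 42 root counts and just under the limit. The leaf to stem ratios nearest the lower limit were 0.503 inside and 0.493 outside, and those nearest the upper limit were 1.97 inside and 2.01 outside.

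Among the 323 unigenes at least 16 times root in both organs, the 156 members made up 48.3%. Another 149 were at least 2 times higher in leaf than in stem, and 18 were at least 2 times higher in stem. The minimum was set on leaf, which admits leaf-high unigenes more readily. With the minimum on stem at the same share of counts (176 stem counts), a setting chosen after seeing the data, 246 unigenes stood at least 16 times above root in both. Of these, 139 were level, 69 leaned to leaf and 38 to stem, and 83 of the 139 level ones (59.7%) were higher in leaf. Of all 2834 unigenes past the stem minimum, 32.1% were higher in leaf, compared with 55.5% of the 2682 past the leaf minimum. Which side held more depended on the scale and the minimum together. With the leaf minimum, leaf-leaning unigenes were more numerous on all counts (86 against 39) and on deposited TPM (64 against 34) as well. With the stem minimum the order turned on both, to 33 against 67 and 26 against 58; these counts too were added after seeing the data.

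Length was not used by the rule. The members had a median length of 1752.5 nt, with quartiles of 1368 and 2114 nt, and ran from 368 to 5799 nt. The 2682 unigenes had a median of 1777.5 nt, with quartiles of 1214 and 2590 nt. The 149 leaf-leaning unigenes were shorter, with a median of 1200 nt and quartiles of 881 and 1542 nt, and the 18 stem-leaning ones had a median of 1262.5 nt. Unigenes under 1000 nt made up 14.1% of the members, 33.6% of the leaf-leaning set, 38.9% of the stem-leaning set and 15.6% of the 2682. Those over 2000 nt made up 29.5%, 11.4%, 33.3% and 40.0% in the same order. In leaf the leaf-leaning set also stood higher per length, at a median of 87.8 TPM against 40.7 TPM for the members. In stem it stood lower, at 38.5 against 53.3 TPM, and the medians in root were 1.09 and 1.25 TPM. The leaf to stem ratio separated these sets, so their order in leaf and in stem is a description only. Whether the sets differ in length beyond chance was not tested, since unigenes of 1 assembly are not replicates, and the part of level and counts in the difference was not tested either.

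**Figure D5:**
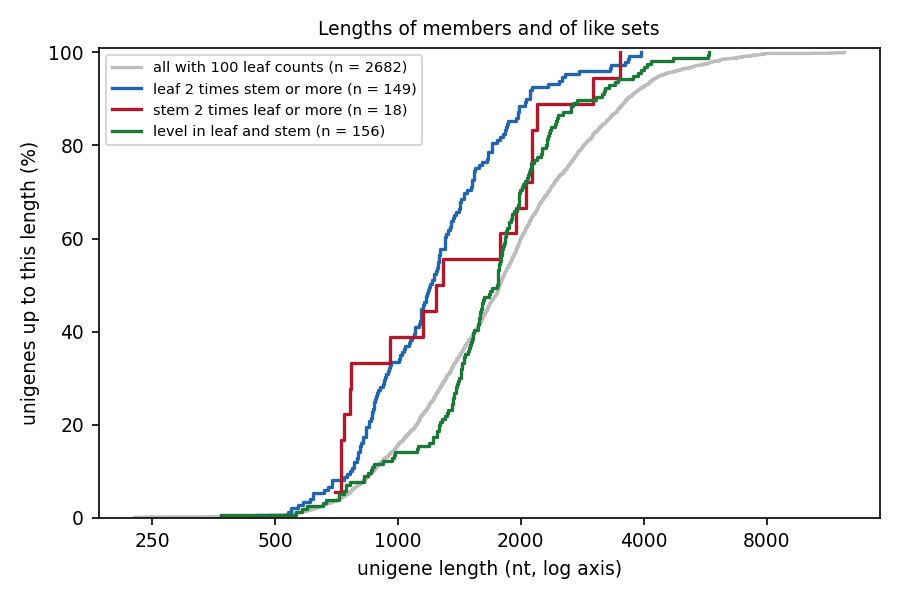
Share of unigenes up to each length (log axis, nt) for the 156 members, the 149 leaf-leaning and 18 stem-leaning unigenes at least 16 times root in both organs, and all 2682 with 100 or more leaf counts. The curves of the members and of all unigenes have medians of 1752.5 and 1777.5 nt, but upper quartiles of 2114 and 2590 nt. At the quartiles and the median, the curve of the members lies to the right of the leaf-leaning curve, with a median of 1200 nt. The shortest member, of 368 nt, is shorter than the shortest leaf-leaning unigene, of 455 nt.

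Within the members, the 22 under 1000 nt stood at a median of 102 TPM in leaf and 122 TPM in stem. The 88 members from 1000 to 2000 nt stood at 44.7 and 58.5 TPM, and the 46 over 2000 nt at 19.6 and 19.7 TPM. A fixed minimum of counts admits short unigenes only at a high TPM. The shortest member, of 368 nt, reached 245 TPM in leaf and 595 TPM in stem against 7.90 TPM in root, and the longest, of 5799 nt, at 37.3, 30.3 and 0.45 TPM. On the scale of the rule, 13 members under 1000 nt were higher in leaf and 9 in stem. From 1000 to 2000 nt these were 64 and 24, and over 2000 nt 37 and 9, out of 114 and 42 in all.

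The ID numbers, also not used by the rule, placed some members side by side. In 15 cases members carried adjacent numbers, which joined 27 of the 156 members (17.3%), and the other 129 had no member next to them. Over the 2682 unigenes, 23.7% adjoined another of the 2682. In the leaf-leaning set 10.1% adjoined another of that set, and in the stem-leaning set 0%. These sets differ in size, and a larger set has more neighbours by number, so the shares are not directly comparable. Among the neighbours by number of any member that themselves had 100 or more leaf counts, 30 of 54 were members (55.6%), counted once for each member they adjoin. Over the 2682 unigenes 5.82% were members. Of the 54, 33 (61.1%) were at least 16 times root in both organs, against 12.0% of the 2682. In 10 of the 15 pairs the lengths differed by under 10%. Pairs within 1 run share members, and the share for adjacent pairs among the 2682 is not given here, so nothing is read from this. The leaf to stem ratios lay within 1.5 times of each other in all 15, but the rule already held them between 0.5 and 2. None of the pairs was equal in length.

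The longest run, named after its values were seen, went from Unigene47018 to Unigene47021. Their lengths were 3190, 3165, 3296 and 3059 nt. Their leaf counts were 226, 198, 207 and 226, their stem counts 296, 286, 279 and 308, and their root counts 23, 22, 22 and 31. The 4 unigenes were thus nearly alike in length and in all 3 libraries. Unigene58020 and Unigene58021 (2684 and 2659 nt) were both near the lower limit of the leaf to stem band, at 0.503 and 0.527, but Unigene58021 held fewer counts, with 218 leaf, 730 stem and 6 root counts. Whether such neighbours are separate genes or variants of 1 locus was not tested, and reads of near-identical unigenes may be split among them. With each run counted once, also a setting chosen after seeing the data, the 156 members came to 141.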

How the data were processed

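Messenger RNA of leaf, stem and root was sequenced as paired-end reads averaging 101 bp, per the labels, with 1 library per organ. The submitters' processing notes name Trimmomatic and RSEM; assembler and aligner were not given in the sources used here. The authors deposited, per the file headers, RSEM expected counts, TPM, FPKM, length and effective length per unigene. All deposited expected counts were whole numbers. The FPKM of the deposited merged table differed from the library tables in 0 values, and FPKM were not used further.

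Ratios were computed on expected counts divided by the library sum without the 100 most counted unigenes, with exact conditional binomial (Clopper-Pearson) 95% intervals. Python 3.11.15, numpy 2.4.6, scipy 1.17.1 and pandas 2.3.3 were used. edgeR 4.0.16 and DESeq2 1.42.0 under R 4.3.3 gave alternative scaling factors only, since 1 library per organ allows no test. The calculation was checked on simulated data that held counting error only. That check covers the calculation itself, not spread between plants or the assignment of reads. The members, lists and the naming rule (largest leaf TPM and largest interval bounds, 2 each) were chosen with earlier results of these data known. No gene list could be used without gene names.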

Additional observations from a re-analysis of the deposited data

How the results depend on the processing

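The alternatives gave 53 values. Compared with those reported, 29 lay within 1.5 times (counts) or within a binomial 95% interval (shares and medians), 22 moved and 2 turned direction. The interval of a median was taken over the ranked members. Members are not replicates, so this interval served as a yardstick only. The median leaf to stem ratio turned, to 0.943 on all counts and 0.913 on deposited TPM. The number of members was 236 on all counts, of which 135 were among the 156, and 188 on deposited TPM, of which 112 were. It was 240 at 8 times root, 100 at 32 times, 87 and 291 with leaf to stem within 1.5 and 4 times, and 784, 312 and 84 with at least 10, 50 and 200 leaf counts. With 100 counts required in stem instead, an alternative chosen after seeing the data, it was 245. TMM kept 152 and DESeq2 factors 146 of the 156. In libraries thinned to 1432056 counts outside the 100 most counted, 154 unigenes met the rule, 137 of them members, and 10 members had no root count. The median leaf to root ratio was 34.2 on TPM, and the stem to root median was 56.4 on all counts and 37.8 on TPM. The leaf to stem interval held 1 in 70 members on all counts. Of summed TPM the members held 1.13% in leaf, 1.49% in stem and 0.0349% in root, against 3.92%, 3.44% and 0.0729% of counts outside the 100 most counted. No paired analysis was possible because each organ has 1 library, and no replicate could be left out.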
